A study of Mus musculus with 2 samples.

Results

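Transcripts of 10 genes of the elastic fibre were compared between 2 regions of the mouse aorta: elastin (Eln), the fibrillins Fbn1 and Fbn2, the microfibril-associated proteins Mfap2, Mfap4 and Mfap5, the interface protein Emilin1, and the lysyl oxidases Lox, Loxl1 and Loxl2. Members were the array probes whose gene name in the scanner files is one of these symbols. All 10 genes had a probe, among 21367 genes measured, and they account for 13 of 41150 gene probes, 1 spot each, with 2 probes for Fbn1, Mfap2 and Loxl2 and 1 for every other gene. A probe was kept where 1 region or both stood well above background on each array. That held for 30521 probes and for all 13 members, 12 of which passed in both regions.

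The samples came from wild-type C57Bl/6 mice, an inbred strain, aged 16 weeks. The aortic arch, a region prone to atherosclerosis, included the root and 2 mm of proximal thoracic aorta, and the resistant central thoracic aorta was the 6 mm beyond. Both were perfused with triton X-100 to strip the endothelium, and RNA of 6 mice (3 males and 3 females) was pooled per region. The same 2 pools were hybridised to 2 dual-colour Agilent arrays, with the arch labelled red (Cy5) on array 1 and green (Cy3) on array 2. The dye swap is technical, so there is 1 replicate per region, no test and no check against the spread between animals. Values after ± give how far each array lies from the mean of both, which is technical error only and includes any dye effect. With 2 arrays a small value here does not show that a ratio is precise. In pooled tissue, fewer cells of a type and less RNA per cell cannot be told apart.

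Elastic fibres let the aorta stretch and recoil. They consist of a core of cross-linked elastin laid down on a scaffold of fibrillin microfibrils, to which MFAP and EMILIN proteins bind. Lysyl oxidases are copper-dependent enzymes that oxidise lysines of elastin and collagen so that the chains can be cross-linked. In the aortic wall smooth muscle cells make most of the elastin, largely before and soon after birth, and fibroblasts of the outer coat also make microfibril proteins.

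None of the 13 probes met the rule used here for a call, a ratio of at least 1.5-fold (0.585 on the log2 scale) in the same direction on each array. Of all 30521 kept probes 0.21% met it with the arch higher and 0.183% with the arch lower. The largest values were those of Mfap4 (1.46-fold, arch over thoracic aorta) and of the brighter Mfap2 probe (1.36-fold), and the lowest was the brighter Loxl2 probe, at which the thoracic pool gave 1.25 times the arch signal. With a 1.3-fold rule Mfap4 and that Mfap2 probe passed, 2 of 13, against 0.528% of all probes higher in the arch and 0.423% lower. Elastin itself had no repeatable direction in the main processing, since its 2 arrays lay on opposite sides of 0. With each array centred on its median in place of loess, both lay below 0.

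**Figure D1:**
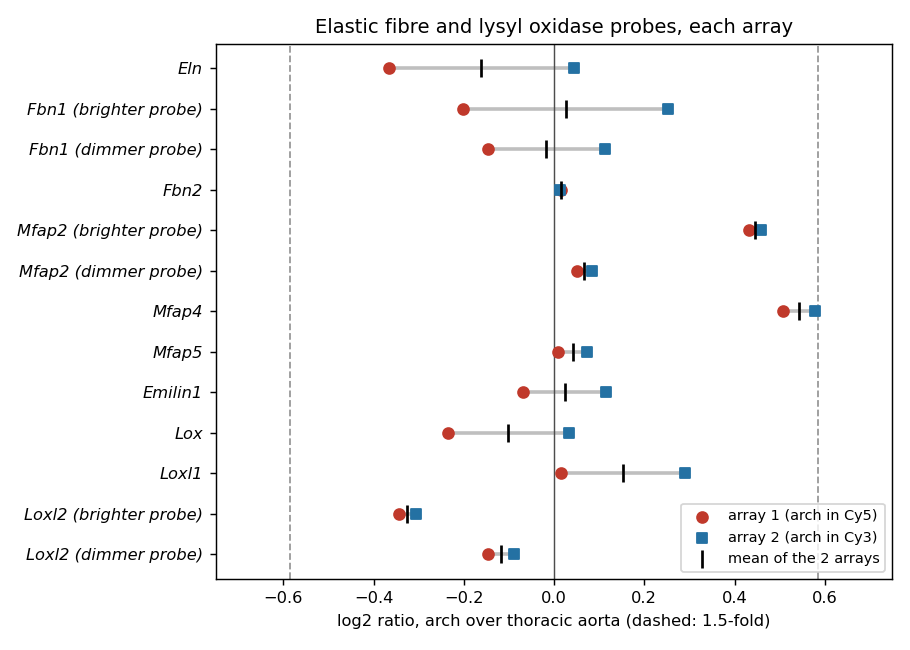
Log2 ratio of arch over thoracic aorta for each of the 13 member probes on array 1 (circles) and array 2 (squares), with the mean as a tick and dashed lines at 1.5-fold. Mfap4 and the brighter Mfap2 probe lie right of 0 and both Loxl2 probes left of 0 on both arrays, whereas Eln, both Fbn1 probes, Emilin1 and Lox straddle 0.

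Elastin is the core protein of the fibre. The Eln probe gave a normalised intensity (log2, comparable within a probe only) of 7.99 in the arch against 8.36 in the thoracic aorta on array 1, and of 8.33 and 8.28 on array 2. The arch was the lower pool on array 1 and slightly the higher on array 2, and the regions overlap. Before normalisation the spot kept 202 units over its local background for the arch and 292 for the thoracic aorta on array 1, and 273 and 303 on array 2. The log2 ratio was −0.37 on array 1 and 0.04 on array 2, with a mean of −0.16 ± 0.21. With each array centred on its median the ratios were −0.47 and −0.12, both below 0. That centring moved the median of all kept probes at least as bright as that of Emilin1 to −0.12. Only 0.917% of kept probes had a distance between the arrays at least as large.

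Fibrillins are the large glycoproteins that polymerise into microfibrils. The brighter Fbn1 probe gave 9.61 in the arch against 9.82 in the thoracic aorta on array 1, and 9.77 and 9.52 on array 2. The regions changed places between the arrays, and the ratios of −0.20 and 0.25 averaged 0.03 ± 0.23 (−0.14 with each array centred on its median in place of loess). The dimmer Fbn1 probe behaved alike, with −0.15 on array 1 and 0.11 on array 2 and a mean of −0.02 ± 0.13. Both probes of the main adult fibrillin therefore gave a mean near 0 and an array difference larger than that mean. Fbn2, a fibrillin made mainly during development, was close to background. Its spot kept 23.6 units in the arch against 39.4 in the thoracic aorta on array 1, and 31.4 and 15.9 on array 2, and it was well above background in the arch on both arrays and in the thoracic aorta on array 1 only. Its ratio was 0.01 ± 0.00 with the offset of 50 that is added to every signal. With the scanner software's ratios it was 0.24 ± 0.16, and that software's own error was 1.08 and 1.82 on the log2 scale.

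**Figure D2:**
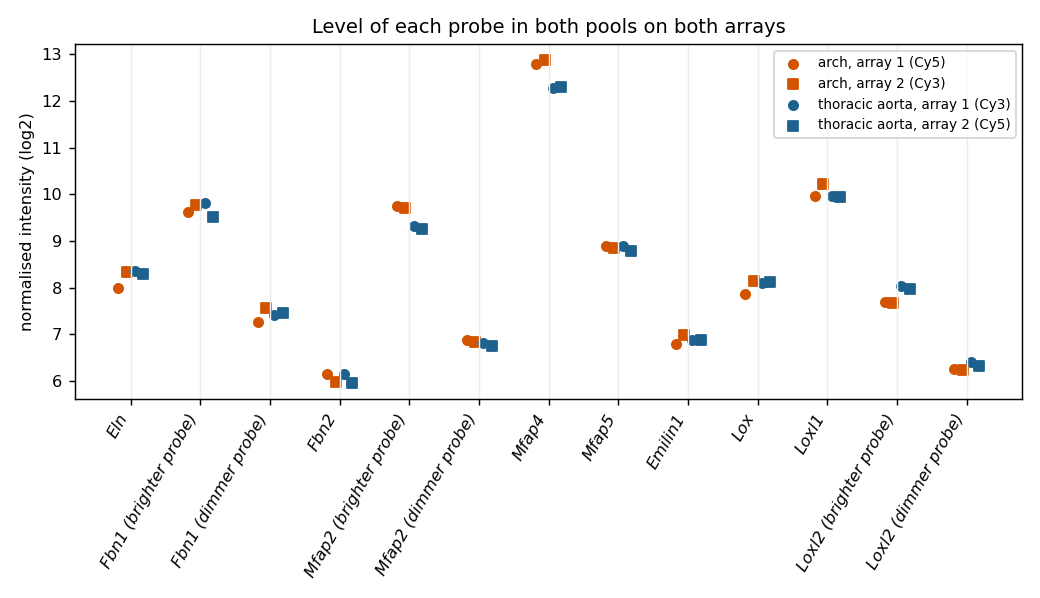
Normalised intensity (log2) of each member probe in the arch (orange) and the thoracic aorta (blue), with circles for array 1 and squares for array 2. Heights are comparable within a probe only; the arch values lie above the thoracic ones for Mfap4 (12.79 and 12.87 against 12.28 and 12.30) and below them for the brighter Loxl2 probe (7.68 and 7.67 against 8.03 and 7.97).

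The microfibril-associated proteins held the highest ratios of the set. Mfap4, a fibrinogen-domain glycoprotein that binds elastin, fibrillin and integrins, gave 12.79 and 12.87 in the arch against 12.28 and 12.30 in the thoracic aorta on arrays 1 and 2. Both arch values lay above both thoracic values. The spot kept 7114 and 6725 units over background in the arch against 4552 and 5999 in the thoracic aorta, and was not saturated. The ratio was 0.51 on array 1 and 0.578 on array 2 (mean 0.54 ± 0.04), just short of the rule on each. Of all kept probes 0.344% had a mean ratio at least as high, and of the 224 probes of like brightness (within 0.5 on the log2 scale) 2.23%.

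Mfap2 encodes MAGP-1, a small protein of nearly all microfibrils. Its brighter probe gave 9.76 and 9.70 in the arch against 9.32 and 9.25 in the thoracic aorta, again without overlap. The ratio was 0.43 on array 1 and 0.46 on array 2, a mean of 0.45 ± 0.01, which 0.495% of all kept probes and 1.39% of 1729 probes of like brightness reached. The dimmer Mfap2 probe kept 67.3 to 80.7 units over background and read 0.05 and 0.08, a mean of 0.07 ± 0.02 (0.13 ± 0.06 with the scanner software's ratios). The probes of Mfap2 thus shared a direction and differed in size. Mfap5, or MAGP-2, a relative of Mfap2, gave 8.89 and 8.85 in the arch against 8.88 and 8.77 in the thoracic aorta, which overlap. Its mean ratio was 0.04 ± 0.03, with both arrays above 0, and −0.11 ± 0.01 with median centring. That setting moved the median of all kept probes at least as bright as that of Emilin1 to −0.12. The direction of Mfap5 thus depended on the processing.

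**Figure D3:**
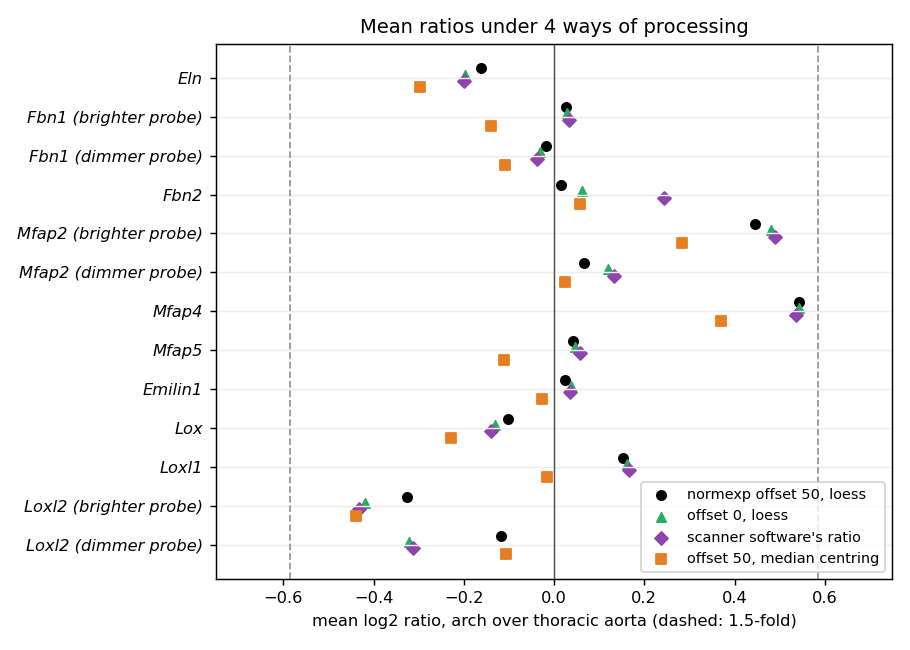
Mean log2 ratio of arch over thoracic aorta for each member probe under 4 ways of processing: normexp with offset 50 and loess (circles), offset 0 and loess (triangles), the scanner software's ratio (diamonds), and offset 50 with median centring (squares). Median centring lies lowest for Mfap4 (0.37) and the brighter Mfap2 probe (0.28), which stay above 0, and moves the brighter Fbn1 probe, Mfap5, Emilin1 and Loxl1 below 0.

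Mfap2 is shown with its upstream sequence because it is the only gene with a mean ratio over 1.3-fold on both arrays that has a window in the RefSeq promoter table used here (build GRCm38.p6), and Fbn1, the microfibril scaffold it binds, is set beside it. Windows were found for 3 of the 10 genes. The windows cover the 200 bases from 250 to 51 before the outermost annotated start, chr4:141010174-141010373 on the + strand for Mfap2 and chr2:125506489-125506688 on the − strand for Fbn1. Capitals mark matches, on either strand, to the TATA box (TATAAA), the CCAAT box (CCAAT), the GC box (GGGCGG), the SMAD element (CAGAC), the E-box (CANNTG) or the CArG box.
Mfap2: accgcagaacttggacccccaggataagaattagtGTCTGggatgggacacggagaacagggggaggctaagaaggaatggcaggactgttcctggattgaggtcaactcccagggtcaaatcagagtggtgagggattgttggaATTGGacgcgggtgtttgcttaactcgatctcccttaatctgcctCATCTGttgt
Fbn1: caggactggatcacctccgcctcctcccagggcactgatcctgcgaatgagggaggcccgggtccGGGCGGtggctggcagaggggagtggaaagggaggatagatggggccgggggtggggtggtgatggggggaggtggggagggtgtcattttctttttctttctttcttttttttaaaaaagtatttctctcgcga
The Mfap2 window held 1 SMAD element, 1 CCAAT box and 1 E-box, which 35.8%, 28.4% and 59.0% of the 32851 windows of the table hold. The Fbn1 window held 1 GC box, present in 24.6% of windows. No match to the TATA box (9.14% of windows) or the CArG box (1.16%) lay in either. No matches overlapped, and they describe letters, not binding sites. GC content was 51.5% for Mfap2, the median of all windows, and 58.0% for Fbn1.

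Emilin1, a glycoprotein at the border of elastin and microfibrils, gave 6.80 and 6.99 in the arch against 6.87 and 6.87 in the thoracic aorta. Its ratio was −0.07 on array 1 and 0.12 on array 2, a mean of 0.02 ± 0.09 (−0.03 with median centring), so the regions could not be ordered.

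Of the 3 lysyl oxidases in the set, only Loxl2 kept a direction on both arrays and under every alternative tried for it. Lox, the founding cross-linking enzyme, gave 7.85 in the arch against 8.09 in the thoracic aorta on array 1, and 8.15 and 8.11 on array 2. Its ratios of −0.24 and 0.03 averaged −0.10 ± 0.13, with opposite signs as for Eln. With median centring both arrays lay below 0, at −0.33 and −0.12, again as for Eln. Loxl1, the isoform most closely tied to elastin renewal, gave 9.97 and 10.22 in the arch against 9.95 and 9.93 in the thoracic aorta. The arrays read 0.02 and 0.29, a mean of 0.15 ± 0.14 that rested on array 2 and became −0.02 with median centring.

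Loxl2, which cross-links basement membrane collagen IV among other substrates, was the one member with lower normalised arch values at every probe on every array. Of its 2 probes only the dimmer is annotated to a RefSeq transcript. The brighter probe gave 7.68 and 7.67 in the arch against 8.03 and 7.97 in the thoracic aorta, and the spot kept 152 and 163 units over background against 223 and 231. All arch values lay below all thoracic ones. The ratio was −0.34 and −0.31, a mean of −0.32 ± 0.02, and 0.816% of all kept probes were at or below it (1.34% of 4983 probes of like brightness). The dimmer probe kept 28.4 units over background in the arch against 53.5 in the thoracic aorta on array 1, and 42.8 and 34.7 on array 2. Before normalisation its regions thus changed places between the arrays. After it the dimmer probe read −0.15 and −0.09, a mean of −0.12 ± 0.03. With an offset of 0 the dimmer probe gave −0.32 ± 0.06 and the brighter one −0.42 ± 0.03. The scanner software's ratios gave −0.31 ± 0.26 and −0.43 ± 0.02. For the dimmer probe these were −0.57 on array 1 and −0.05 on array 2, with that software's own error at 0.72 and 0.74.

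Members differed in how well the arrays repeated one another. The arrays shared a sign for 8 of 13 probes (61.5%, against 53.7% of all kept probes), 6 above 0 and 2 below. The 6 were both Mfap2 probes, Mfap4, Mfap5, Fbn2 and Loxl1, and the 2 were those of Loxl2. Among probes at least as bright as that of Emilin1, the arrays shared a sign for 5 of 10 members and for 60.9% of kept probes. At that brightness the members thus did not share a sign more often than other probes. Array 2 gave the higher ratio for 12 of 13 member probes, all but Fbn2, where it did so for 47.7% of all kept probes. The distance of either array from the mean exceeded 0.1 for 5 of the 13 (Eln, both Fbn1 probes, Lox and Loxl1), or 38.5%, against 10.4% of all kept probes and 15.2% of the 14396 probes at least as bright as that of Emilin1. For these 5 probes and Emilin1 the arch read relatively higher where it carried Cy3. With 1 array per orientation, a dye effect and any other difference between the arrays cannot be told apart, and a dye effect of this kind cancels in the mean. The median ratio of the 13 probes was 0.02, beside −0.0013 for all kept probes. It was −0.07 on array 1 and 0.08 on array 2.

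**Figure D4:**
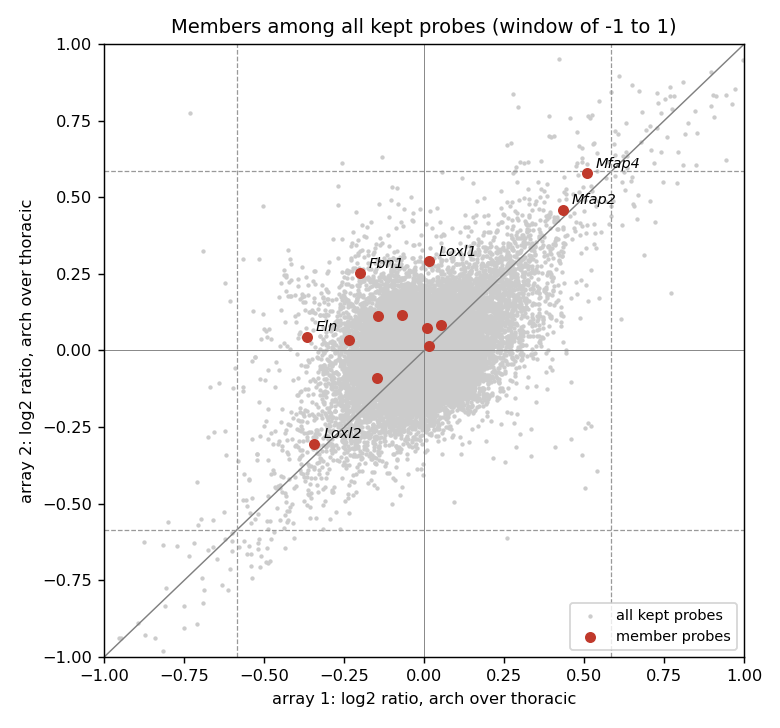
Log2 ratio of arch over thoracic aorta on array 1 (horizontal) and array 2 (vertical) for the kept probes (grey) and the 13 member probes (red), within a window of −1 to 1, with the diagonal of equal ratios and dashed lines at 1.5-fold. Mfap4, the brighter Mfap2 probe and the brighter Loxl2 probe lie close to the diagonal, and 12 of 13 members lie above it.

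Other genes of elastic fibre assembly, processing and breakdown were read at each gene's brightest kept probe. Of 40 listed genes 38 were measured, Mmp12 and Tll1 not being well above background. Of the 38, 2 were called higher in the arch and 0 lower, against 0.257% and 0.229% of all 21367 genes, and the list's median was 0.03 beside 0.00 for all genes. On both arrays 17 of the 38 lay above 0 and 10 below, against 6058 and 5661 of all 21367 genes. The called genes were Efemp1, or fibulin-3, at 0.73 and 0.81 (1.70-fold, mean 0.77 ± 0.04), and Ltbp2, a fibrillin-binding protein, at 0.94 and 0.62 (1.72-fold, mean 0.78 ± 0.16). Both lost the call with median centring, at means of 0.60 and 0.65. The other Ltbp2 probe read −0.03, and with the gene's probes averaged Ltbp2 fell short of the rule. Adamtsl2 and Mmrn2 were called as well with the scanner software's ratios, at 0.72 and 0.70.

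Adamtsl2, Mmrn2 and the partners named from here on were picked after their values were seen. Of the 5 fibulins, adaptors between elastin, microfibrils and cross-linking enzymes, 4 had a mean above 0, as did 10995 of all 21367 genes. Besides Efemp1 the 4 included Fbln5 (0.65 ± 0.10, and 0.08 at its other probe), Fbln1 (0.48 ± 0.04) and Fbln2 (0.42 ± 0.03). Efemp2, or fibulin-4, which brings lysyl oxidase to elastin, was −0.04 ± 0.12. The 4 latent TGF-beta binding proteins lay between 0.07 and 0.78, although with median centring Ltbp3 and Ltbp4 read −0.10 and −0.03. The remaining lysyl oxidases were close to 0, Loxl3 at −0.03 ± 0.01 and Loxl4 at 0.06 ± 0.01. Pcolce, an enhancer of procollagen processing, was −0.22 ± 0.01.

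Enzymes that cut elastin lay on both sides of 0, from −0.41 ± 0.12 for cathepsin K (Ctsk) and −0.24 ± 0.01 for cathepsin S (Ctss) to 0.27 ± 0.02 for Mmp2. Of the 4 metalloproteinase inhibitors Timp3 was the highest, at 0.35 ± 0.10. The copper pump Atp7a, which loads lysyl oxidases, was −0.19 ± 0.04. Among proteoglycans Vcan read −0.39 ± 0.05 and 0.16 at its other probe, and Bgn showed the widest array difference of the list, −0.08 and 0.53. None of these met the 1.5-fold rule.

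**Figure D5:**
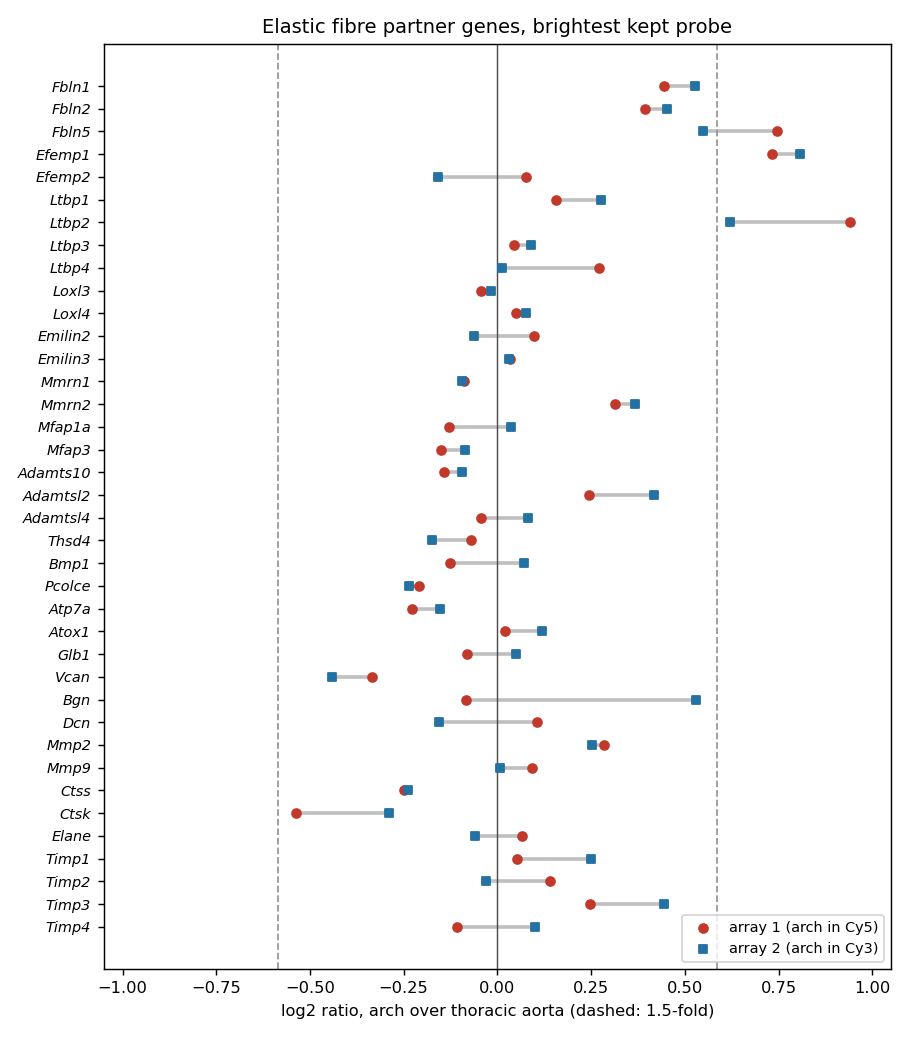
Log2 ratio of arch over thoracic aorta for 38 partner genes at their brightest kept probe on array 1 (circles) and array 2 (squares), with dashed lines at 1.5-fold. Efemp1 and Ltbp2 lie beyond the line on both arrays and Fbln5 on array 1 only; with median centring neither Efemp1 nor Ltbp2 is called.

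The 2 pools also differed in markers of other cells. All 9 smooth muscle markers were well above background, with 0 called, a median of −0.06 and summed normalised intensities of 159468 and 150397 units in the arch against 157985 and 154537 in the thoracic aorta. The 8 adventitial fibroblast markers had a median of 0.04 with 0 called, and sums of 48239 and 51123 in the arch against 47684 and 48094. The list was split, with 4 markers above 0 on both arrays and 3 below. Lum read 0.49 and 0.61, and Pdgfra 0.40 and 0.70 (mean 0.01 at its other probe). Col1a1 read −0.29 and −0.31, and Serpinf1 −0.31 and −0.17. Adipocyte markers had a median of 0.39 with 3 of 8 called higher in the arch, and sums of 45844 and 44347 against 33713 and 34737. Those of mesothelium had a median of 0.41 with 0 of 7 called, and sums of 2013 and 2137 against 1503 and 1542. Cartilage markers had a median of 0.18 with 1 of 6 called, and sums of 6577 and 6755 against 5569 and 5220. The called marker, Cytl1, read 1.95 and 1.96, whereas Col2a1, the brightest of the list, read −0.02 and 0.12. Cardiomyocyte markers had the highest median of these lists, 0.87, with 3 of 5 called higher. Myl7 read 2.32 and 2.35 on arrays 1 and 2, Tnnt2 1.57 and 1.62, Sln 0.91 and 0.83, and Nppa 0.31 and 0.25. Actc1 changed sign, at 0.05 and −0.16. The list's sums of 14576 and 14387 in the arch against 13195 and 15020 did not keep one order on both arrays. Actc1 made up most of each sum, with a mean arch level of 13.66 (log2) against 9.04 for Myl7, the next brightest. Macrophage markers had a median of −0.09 with 0 of 7 called, and sums of 22627 and 20449 against 25433 and 26987, lower in the arch on both arrays. Lyz2 made up most of each sum, with a mean arch level of 14.23 (log2) against 9.32 for Tyrobp, the next brightest. Of the 7 markers 6 lay below 0 on both arrays. Of the 7 endothelial markers 6 were well above background in both pools despite the detergent. Their list had a median of 0.06 with 0 called, and sums of 708 and 721 against 640 and 679. All sums here include the offset added to every signal, so part of the endothelial sums is offset. Pecam1, Cdh5 and Nos3 had mean arch levels of 6.13, 6.14 and 6.30 (log2), beside 6.07 for Fbn2, which was close to background. Vwf, the brightest endothelial marker, had 7.20. The part of the listed cell types in the ratios of Mfap4, Mfap2 and Loxl2 was not tested. Signals well above background made up 71.3% to 81.5% of gene spots, depending on the channel, and median centring in place of loess turned 64 probes called higher and 56 lower into 35 and 85.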

How the data were processed

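The submitters' processing notes name Feature Extraction 9.1.1.1, Agilent's image software. Each deposited scanner file gives every spot's mean signal and local background as an intensity per dye, and a log10 ratio of processed Cy5 over Cy3 signals with its error, per the file headers. The authors' value table held the same log10 ratio as arch over thoracic aorta for 99.9% of gene spots on each array (tolerance 1e-05), with medians of 0. A genome build for the probes is not given in the sources used here.

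With limma 3.58.1 in R 4.3.3, intensities were background-corrected (normexp, offset 50) and normalised within each array (loess, control spots at weight 0). Flagged outlier spots (20 and 4) were left out, and array 2 was turned to arch over thoracic aorta. A gene took its brightest kept probe. Levels are per channel after Aquantile normalisation between arrays. The offset shrinks ratios of dim probes. Partner symbols were matched through a RefSeq gene table (GRCm38.p6), 22852 of 41150 probes by accession. The steps were tested on simulated data. Members and lists were chosen with earlier results of these data known. The rule for named genes took all members and the called partners, and other partners were named after their values were seen. The alternatives tried were other offsets, the scanner software's ratios, the value table, median centring, each array alone, other filters and folds, and the mean over a gene's probes.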

Additional observations from a re-analysis of the deposited data

How the results depend on the processing

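The count of member probes called was 0 in each direction under every alternative but the 1.3-fold rule, which gave 2 higher (Mfap4 and the brighter Mfap2 probe). Mfap4, Fbn2 and both Mfap2 probes stayed above 0, and both Loxl2 probes below 0, under all alternatives run for them. Mfap4 ranged from 0.37 to 0.58, the brighter Mfap2 probe from 0.28 to 0.49 and the brighter Loxl2 probe from −0.44 to −0.31. The other 7 probes changed sign with median centring or on 1 array alone. Median centring moved the members' median from 0.02 to −0.11 and the median of probes at least as bright as that of Emilin1 to −0.12. Against 64 probes called higher and 56 lower, there were 146 and 126 at offset 0, 200 and 160 by either the value table or the scanner's own ratios, median centring 35 and 85, array 2 alone 101 higher, the 1.3-fold rule 161 and 129 and the 2-fold rule 11 and 17. The partner list's median of 0.0253 was 0.0447 with an offset of 0, 0.0359 with one of 16, 0.0605 by the scanner's own ratios and by the value table, −0.0884 with median centring, 0.0468 and 0.0431 on array 1 and array 2 alone, and 0.0185 with no filter. Of the partners, 4 were called higher by the scanner's own ratios and by the value table, 5 with the 1.3-fold rule, 1 as the mean over probes and 0 with median centring or the 2-fold rule. Depth here means signal over background: negative controls kept a median of 9.90 to 27.1 units, so Fbn2 and the dimmer Loxl2 probe, at 15.9 to 53.5, are imprecise.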
